A study of Mus musculus with 14 samples.

Results

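Photoreceptor open chromatin was described here for the elements that a list of reproducible ATAC-seq peaks held in single-sorted green cones and in no other sort. In ATAC-seq a transposase cuts accessible DNA, so that reads pile up at promoters and enhancers that are free of nucleosomes, and the highest point of a peak is its summit. Of the 53204 elements of 200 bp counted in this mouse series, 3495 (6.57%) overlapped no window of 100 bp on either side of a summit in the peak lists of rods, of Nrl-/- photoreceptors or of double-sorted green cones. Every one of these 3495 elements was centred on a summit of the list of single-sorted green cones, and none lay outside all 4 lists. They are called single-sorted-only elements below. The elements were selected on measured values, namely which libraries gave a peak, so their levels and the ATAC-seq comparisons between groups are given as a description and not as evidence of a difference.

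Retinas came from C57BL/6 mice aged 8 weeks, were dissociated with trypsin and were sorted for GFP. Rods came from Nrl-eGFP mice, in which the Nrl promoter drives the reporter, green cones from Opn1mw-GFP mice, in which the medium-wavelength opsin promoter does, and Nrl-/- photoreceptors (labelled blue cones) from Nrl-eGFP;NrlKO mice that lack the rod factor NRL. Rods and Nrl-/- photoreceptors were sorted once, and green cones either once (replicates 1 and 2) or again through the sorter (replicates 3 and 4). Each of these 4 groups had 2 ATAC-seq libraries, and RNA-seq had 3 libraries each of rods and Nrl-/- photoreceptors and is given here for no green cones. The study calls the replicates biological, while the labels do not say whether they came from separate animals, and p-values measure the spread between these libraries.

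Distal elements carry most of the differences in open chromatin between related cell types, because promoters of widely used genes are open in nearly every cell. Rods and cones share the homeodomain factors CRX and OTX2 and differ in a few regulators, with NRL and NR2E3 in rods and thyroid hormone and retinoid receptors in cones. Factors of the basic leucine zipper (bZIP) family, which include FOS and JUN as well as NRL and the other MAF proteins, bind palindromes with TGA and TCA arms, and FOS and JUN dimers prefer TGACTCA and its reverse complement TGAGTCA.

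Library totals over all elements were 5170146 and 5770075 counts in rods, 2402513 and 4318961 in Nrl-/- photoreceptors, 3940065 and 2131701 in single-sorted and 1263753 and 1062403 in double-sorted green cones. Levels are in CPM, the count of an element over the library total after TMM scaling. At the promoter of Gnat1, the rod transducin, the level was 126 and 111 CPM in rods, 0.828 and 0.454 in Nrl-/- photoreceptors, 42.5 and 27.8 in single-sorted and 1.55 and 5.39 in double-sorted green cones, so single-sorted green cones held more of this rod signal than the double-sorted ones. The promoter of Opn1mw, the green cone opsin, had 14.7 and 10.5 CPM in single-sorted and 8.55 and 22.5 in double-sorted green cones, and 0.417 and 0 in rods. The supplementary library list names another mouse line, one without Nrl, for the first library of single-sorted green cones than its label does. An element in an Nrl intron had 43.0 CPM in that library, 31.0 in the other single-sorted library and 0 in both Nrl-/- libraries.

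The printed elements are examples picked by level, by nearest gene or by motif, and do not represent the set. All are read from the forward strand of GRCm38.p6, 5′ to 3′, and are named by position and nearest gene. Capitals mark every match, on either strand, to the bZIP motif TGANTCA, to CTAATCC, the preferred site of CRX, and to the nuclear receptor element AGGTCA. The bZIP motif was in 15.3% of the set and is far more common among the printed elements. The initial 4 are among the elements with the highest mean level in single-sorted green cones.
chr7:44305306-44305505 (Clec11a): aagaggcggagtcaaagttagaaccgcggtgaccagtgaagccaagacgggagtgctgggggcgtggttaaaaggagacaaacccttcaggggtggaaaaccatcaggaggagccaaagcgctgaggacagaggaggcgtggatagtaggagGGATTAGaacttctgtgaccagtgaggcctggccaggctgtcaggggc
chr10:58322932-58323131 (Lims1): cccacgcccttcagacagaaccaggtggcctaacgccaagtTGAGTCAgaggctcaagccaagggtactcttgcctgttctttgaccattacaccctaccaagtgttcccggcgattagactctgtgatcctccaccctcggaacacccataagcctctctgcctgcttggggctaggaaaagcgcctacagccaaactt
chr8:126592022-126592221 (Irf2bp2): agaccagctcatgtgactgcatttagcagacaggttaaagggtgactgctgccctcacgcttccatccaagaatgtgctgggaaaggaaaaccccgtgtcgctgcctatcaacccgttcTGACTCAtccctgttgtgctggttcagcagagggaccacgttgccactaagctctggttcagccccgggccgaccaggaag
chr14:63997865-63998064 (Rp1l1): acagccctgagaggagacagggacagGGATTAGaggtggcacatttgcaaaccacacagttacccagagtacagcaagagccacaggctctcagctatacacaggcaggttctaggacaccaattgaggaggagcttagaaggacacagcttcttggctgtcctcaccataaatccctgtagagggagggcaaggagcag

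The next pair are nearest to genes of the marker lists and overlap no annotated exon. Elements near Prdm1 and Pde6g, also genes of these lists, hold no marked match and are not printed. Their mean levels in single-sorted green cones were 12.2 and 9.75 CPM. The nearest genes are Prph2, a structural protein of the outer segment disc rim, and Dlx2, a homeodomain factor of interneuron development.
chr17:46933103-46933302 (Prph2): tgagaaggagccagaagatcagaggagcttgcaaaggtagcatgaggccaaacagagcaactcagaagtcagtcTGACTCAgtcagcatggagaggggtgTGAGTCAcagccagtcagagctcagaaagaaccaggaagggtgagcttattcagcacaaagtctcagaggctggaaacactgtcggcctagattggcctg
chr2:71543086-71543285 (Dlx2): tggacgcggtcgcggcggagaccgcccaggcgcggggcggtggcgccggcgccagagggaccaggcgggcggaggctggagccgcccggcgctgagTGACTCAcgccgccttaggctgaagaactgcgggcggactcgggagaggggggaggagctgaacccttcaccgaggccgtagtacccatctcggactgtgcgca

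The last 5 were chosen after their values were seen. They hold TGACTCA or TGAGTCA, lie outside every peak of the other lists, and stand among the highest in single-sorted green cones relative to the other groups. An intronic element of Rab12 with the motif TGANTCA, at 4.40 and 11.9 CPM in single-sorted green cones, stood among them and is not printed.
chr15:57906771-57906970 (Tbc1d31): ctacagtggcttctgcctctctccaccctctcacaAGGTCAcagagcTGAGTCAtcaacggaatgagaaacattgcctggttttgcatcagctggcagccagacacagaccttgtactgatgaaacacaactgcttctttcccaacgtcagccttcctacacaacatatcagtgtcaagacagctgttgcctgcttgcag
chr19:38973786-38973985 (Cyp2c55): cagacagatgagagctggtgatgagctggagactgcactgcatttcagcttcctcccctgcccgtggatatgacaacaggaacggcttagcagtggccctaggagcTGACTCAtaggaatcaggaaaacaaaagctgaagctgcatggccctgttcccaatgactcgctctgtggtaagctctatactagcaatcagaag
chr11:102245177-102245376 (Hrob): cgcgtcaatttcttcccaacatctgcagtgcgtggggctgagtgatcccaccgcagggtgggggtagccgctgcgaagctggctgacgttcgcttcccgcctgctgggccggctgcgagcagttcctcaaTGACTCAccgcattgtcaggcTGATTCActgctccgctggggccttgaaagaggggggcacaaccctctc
chr4:133614506-133614705 (Sfn): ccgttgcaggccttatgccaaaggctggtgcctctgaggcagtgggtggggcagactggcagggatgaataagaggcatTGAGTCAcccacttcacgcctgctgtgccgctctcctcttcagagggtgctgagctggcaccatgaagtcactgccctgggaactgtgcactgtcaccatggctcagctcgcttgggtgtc
chr3:135522066-135522265 (Manba): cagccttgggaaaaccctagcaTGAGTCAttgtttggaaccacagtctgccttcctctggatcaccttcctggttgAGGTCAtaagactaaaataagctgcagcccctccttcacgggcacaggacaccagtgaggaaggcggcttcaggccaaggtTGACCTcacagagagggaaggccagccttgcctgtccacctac

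The single-sorted-only elements were weakly open. Their peaks had a median −log10 q of 14.2 (11 to 225) against 40.1 over the 42685 peaks of the list, and 84.1% of them were among the weakest 1 in 4 of that list. Their median fold enrichment over the local background was 5.10, against 7.71 for the list. The median element had 23 and 14 counts in the libraries of single-sorted green cones, 6 and 4 after double sorting, 8 and 10 in rods, and 7 and 13 in Nrl-/- photoreceptors. Counts this low carry a large counting error, above all after double sorting.

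Median levels over the 3495 elements were 5.62 and 6.38 CPM in the libraries of single-sorted green cones and 4.66 and 3.59 CPM in those of double-sorted green cones. Nrl-/- photoreceptors had medians of 2.90 and 2.95 CPM, rods of 1.67 and 1.88 CPM. Relative to the median of all elements in the same library, these levels were 0.605 and 0.636 after single sorting, 0.50 and 0.40 after double sorting, 0.318 and 0.310 for Nrl-/- photoreceptors, and 0.216 and 0.233 for rods. Both green cone groups thus stood above Nrl-/- photoreceptors and rods in every library, and rods were lowest. In rods, 15.6% and 12.4% of the elements had no count at all, against 7.31% and 5.84% of all elements. In bulk sorts, fewer cells with an open site and a less open site in each cell cannot be told apart.

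**Figure D1:**
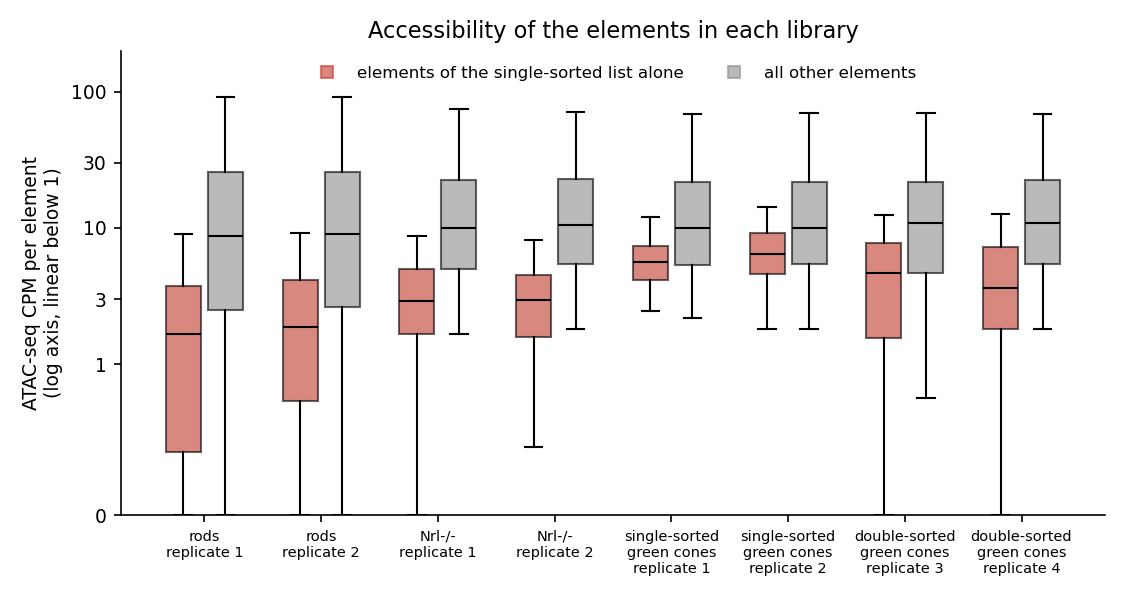
CPM per element (log axis, linear below 1) in each of the 8 ATAC-seq libraries, for the 3495 single-sorted-only elements and for all other elements. Boxes span the quartiles with the median as a line, and whiskers reach the 5th and 95th percentiles. The median of the single-sorted-only elements is 1.67 and 1.88 in rods but 5.62 and 6.38 in single-sorted green cones.

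Single-sorted green cones had the highest group mean at 2223 (63.6%) of these elements and double-sorted green cones at 851 (24.3%). Rods were highest at 277 and Nrl-/- photoreceptors at 144. Over all elements the order was different, with rods highest at 35.5% and single-sorted green cones at 14.9%. Both libraries of single-sorted green cones lay above both rod libraries at 2584 elements (73.9%, background over all elements 41.3%), above both Nrl-/- libraries at 2293 (65.6%, background 28%) and above both double-sorted libraries at 1121 (32.1%, background 21%). They lay above all 6 others at 704 elements (20.1%, background 3.08%). Both double-sorted libraries lay above both single-sorted ones at 183 elements (5.24%, background 17.0%). Apart from these 183 and the 1121, the libraries of single- and double-sorted green cones overlapped. Because peak calls in these libraries chose the elements, nothing is read from these shares.

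The order of the green cone groups depended on the scale. As CPM of all processed reads of the library, the median over the elements was 0.410 after single sorting of green cones and 0.446 after double sorting, where the median of all elements was 0.651 and 0.982. Relative to all elements the levels then remained 0.629 and 0.454. Rods and Nrl-/- photoreceptors had 0.232 and 0.265 on this scale at the single-sorted-only elements.

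A test of single-sorted against double-sorted green cones called none of the elements. With edgeR (glmTreat, differences beyond 1 on the log2 scale, adjusted p below 0.1), 0 of 1917 tested single-sorted-only elements were called in either direction, as were 0 of all 40884 tested elements (0% in each direction). DESeq2 called 0 too. At an unadjusted p under 0.05, 40 of the 1917 elements were more open after single sorting and 0 after double sorting, against 362 and 143 of all elements. The median log2 fold change, single- over double-sorted, was 0.30 for the elements and 0.01 for all tested. Without double-sorted replicate 4 there were calls at these elements and over all elements. In that fit the remaining double-sorted library is assumed to vary like the single-sorted ones, so nothing is read from the number of calls.

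The elements with the lowest p in that comparison rested on few counts. An element in an exon of Chtop, which encodes a chromatin protein (chr3:90503179-90503378), had 7.57 and 7.30 CPM in single-sorted and 0 and 0 in double-sorted green cones. It had 2.92 and 2.64 CPM in rods and 3.31 and 2.27 in Nrl-/- photoreceptors. An intronic element near Ccser2 (chr14:36942934-36943133) was at 6.59 and 7.30 CPM in single-sorted green cones and at 0 in both double-sorted libraries. In the other direction, an intronic element of Ptprg, a receptor tyrosine phosphatase, had 5.37 and 2.74 CPM in single-sorted and 12.4 and 10.8 in double-sorted green cones (chr14:11670729-11670928). A single count was worth 0.777 and 0.898 CPM in the double-sorted libraries.

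Between rods and Nrl-/- photoreceptors, 2273 of the elements were tested. Of these, 58 (2.55%) were more open in rods, where 6.38% of all 49364 tested elements were, and 379 (16.7%) were more open in Nrl-/- photoreceptors, where 21% of all were. The rule used the peak calls of these libraries, so nothing is read from these counts. The counts moved when a library was left out, at these elements and over all elements. Nothing is read from the counts of those fits, because a lone library left in a group shows no spread.

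The elements with the lowest p in this contrast were nearly closed on one side. An element in an intron of Lmo1, a transcriptional cofactor with LIM domains (chr7:109165958-109166157), had 12.3 and 12.8 CPM in rods and 0 and 0.681 in Nrl-/- photoreceptors. It had 9.03 and 10.9 CPM in single-sorted and 6.22 and 1.80 in double-sorted green cones, so the single-sorted green cones stood between, near the rods. An intronic element of Pitpnm3, a phosphatidylinositol transfer protein (chr11:72135051-72135250), had 14.0 and 11.7 CPM in rods and 1.66 and 1.36 in Nrl-/- photoreceptors, with 12 and 12.3 single-sorted and 11.7 and 2.69 double-sorted. The Gnat1 promoter was higher after single than after double sorting, and the part of rods in these levels was not tested. An intronic element of Peli2, a ubiquitin ligase, had 7.5 and 7.34 CPM in rods and 0.828 and 0.454 in Nrl-/- photoreceptors. Its single-sorted libraries, at 6.35 and 10.0 CPM, overlapped the double-sorted ones, at 7.77 and 14.4. More open in Nrl-/- photoreceptors was an element near Parvb (chr15:84226977-84227176), at 7.87 and 13.2 CPM there, 0 in both rod libraries, 8.79 and 16.0 single-sorted and 9.33 and 13.5 double-sorted. An element in an intron of Nptx1, a synaptic pentraxin (chr11:119545921-119546120), had 7.45 and 6.81 CPM in Nrl-/- photoreceptors, 0 in both rod libraries, with 7.33 and 6.38 single-sorted against 6.22 and 1.80 double-sorted.

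Many of the elements lay close to peaks of the other lists. The distance from the middle of an element to the nearest summit of another list had a median of 3462 bp, and 843 elements (24.1%) were within 500 bp while 1013 (29.0%) were over 10 kb away. The whole interval of a peak of another list covered 987 of them (28.2%), and 2508 (71.8%) lay outside every such interval. The nearest summit belonged to double-sorted green cones for 1382, to Nrl-/- photoreceptors for 1286 and to rods for 827 elements.

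At the edge of the rule, the 3 elements just outside had the higher means in single-sorted green cones. The members nearest to another summit, at 200, 200 and 201 bp, had 3.42 and 6.38 CPM (near Ndfip2), 3.42 and 8.21 CPM (near Gm1673) and 3.91 and 8.21 CPM (near Pknox2) in single-sorted green cones. The farthest elements outside the set, each at 196 bp, had 11.7 and 7.30 CPM (near Matr3), 5.86 and 11.9 CPM (near Cdh4) and 15.1 and 6.84 CPM (on chromosome Y) there.

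The shoulder elements and the isolated ones differed in position. Of the 987 elements inside a peak of another list, 25.5% were in promoters, from 1000 bp upstream to 100 bp downstream of a RefSeq start site, and their median distance to the nearest start site was 598 bp. Of the 2508 isolated elements only 5.10% were in promoters, 57.3% in introns and 33.9% between genes, at a median distance of 20212 bp. Together the 3495 elements were 10.9% promoter, 6.27% exon, 53.4% intron and 29.4% intergenic, against 26.6%, 5.70%, 39.8% and 27.8% of all elements. Their median distance to a start site was 13145 bp (8402 bp for all elements). The isolated elements had a median GC content of 49.5% and a mean of 3.64 CpG per 200 bp, and the shoulder elements had 59.0% and 11.8, which was above the 53.5% and 8.68 of all elements. Repeats covered 9.65% of the bases of the elements and 8.47% of all elements.

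**Figure D2:**
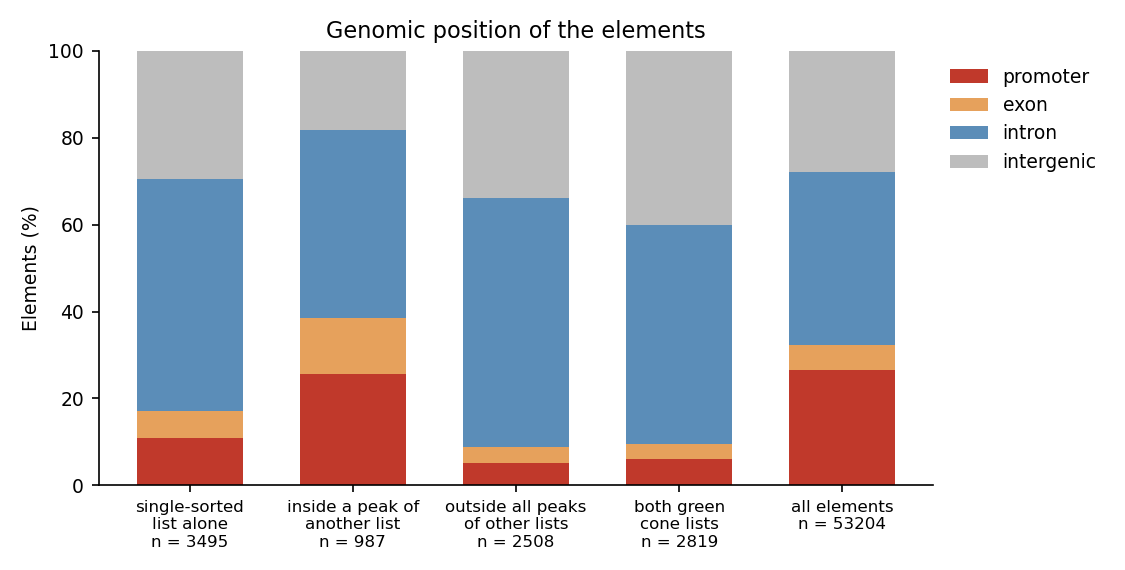
Share of elements (%) in promoters, exons, introns and between genes for the 3495 single-sorted-only elements, for the 987 inside a whole peak of another list and the 2508 outside all of them, for the 2819 elements found in both green cone lists and in neither other list, and for all 53204 elements. Promoters make up 25.5% of the elements inside another peak and 5.10% of those outside.

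Of the 10 elements with the highest level in single-sorted green cones, 5 were such shoulders. The highest, in an intron of Clec11a, a secreted growth factor with a lectin domain (chr7:44305306-44305505), had 63.7 and 53.8 CPM in single-sorted green cones, 103 and 94.3 in rods, 65.8 and 60.8 in Nrl-/- photoreceptors, and 14.8 and 79.9 in double-sorted green cones. Its double-sorted replicates were far apart, and a double-sorted summit lay 220 bp away. The Lims1 element, at -515 bp from the start of that focal adhesion gene, had 67.5 and 66.8 CPM in rods and 53.0 and 52.4 in single-sorted green cones. In contrast, an element at -1228 bp from the start of Ndel1, a dynein regulator (chr11:68854263-68854462), had 13.2 and 32.4 CPM single-sorted and 21.0 and 12.6 double-sorted, with 1.25 and 1.69 in rods. The intronic element of Etv5, an ETS factor (chr16:22434658-22434857), was likewise a green cone site, at 19.3 and 24.2 CPM single-sorted, 28.0 and 8.98 double-sorted, 4.14 and 5.67 in Nrl-/- photoreceptors and 1.67 and 0.753 in rods. The remaining members of this group of 10 lay near Irf2bp2, C330013E15Rik, Zfp516, Gm10556, Rp1l1 and Ppp3ca, with means of 22.9 to 27.3 CPM in single-sorted green cones.

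Of 15 motifs searched on both strands, the bZIP motif had the highest ratio between the elements and the whole table. TGANTCA was present in 533 of the 3495 elements, 15.3% (95% exact binomial interval 14.1 to 16.5, counting error only), and in 6.28% of all elements, a ratio of 2.43. The palindromes with C or G in the middle, TGACTCA or TGAGTCA, were in 445 elements (12.7%) and in 4.61% of all. The forms with A or T in the middle were in 3.0% and 1.79%. TGACGTCA, the cAMP response element with an extra base between the arms, was in 0.830% against 1.25%, but outside promoters in 0.803% against 0.589%. The difference was also there outside promoters, where TGANTCA was in 16.5% of the elements and 7.64% of all, and inside promoters, at 5.26% against 2.53%.

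The motif was in 18.9% of the isolated elements and in 5.88% of the shoulder elements. It was not particular to the single-sorted list: the 2819 elements found in both green cone lists and in neither other list held it at 14.9%. The 2017 elements of the double-sorted list alone held it at 7.14%, the 4395 of the Nrl-/- list alone at 4.82% and the 1858 of the rod list alone at 4.25%. These shares describe sets chosen by peak calls and were not tested against each other.

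**Figure D3:**
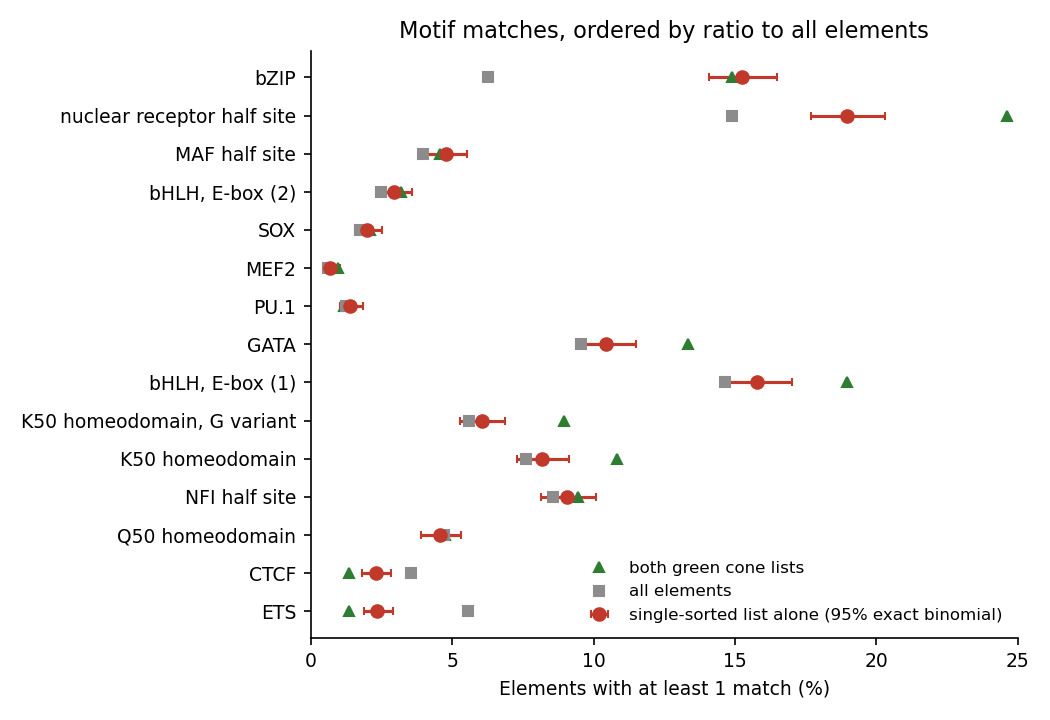
Share of elements (%) with at least 1 match to each of 15 motifs, for single-sorted-only elements (circles, bars are 95% exact binomial intervals), elements in both green cone lists alone (triangles) and all elements (squares), ordered by the ratio of the first to the last. The bZIP motif is in 15.3%, 14.9% and 6.28%.

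Other motifs differed less. AGGTCA, the element of nuclear receptors such as the retinoid-related and thyroid hormone receptors, was in 19.0% of the elements and 14.9% of all (outside promoters 19.6% and 17.6%), and in 24.6% of those found in both green cone lists. CTAATCC was in 8.18% against 7.61% but outside promoters in 8.60% against 9.54%, CTAAGCC in 6.04% against 5.61% and the MAF element TGCTGAC in 4.78% against 3.98%. The E-boxes CAGCTG and CATATG were in 15.8% against 14.6% and 2.95% against 2.50%, TAATTA in 4.58% against 4.71%, and AGATAA in 10.4% against 9.54%. The SOX, MEF2 and NFI letters ACAATGG, CTATTTTTA and TTGGCA were in 2.0%, 0.69% and 9.07%, against 1.75%, 0.61% and 8.58%. The PU.1 site GAGGAAGT, bound by a factor of microglia and other myeloid cells, was in 1.40% against 1.24%. The ETS site CCGGAAG was in 2.35% against 5.55%, but outside promoters in 2.12% against 2.19%. The motif of CTCF, which bounds chromatin loops, was in 2.29% against 3.53%, and outside promoters in 2.57% against 4.53%.

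Within the elements, the bZIP matches were concentrated near the summit. In the central 20 bp there were 2.66 matches per 100 elements, and in the bins centred 80 bp upstream and downstream 1.09 and 0.80. All other elements had 0.68 matches per 100 elements in the centre and 0.50 and 0.55 in those bins, so that there the matches were spread almost evenly. Elements found in both green cone lists alone had the same rounded shape, with 2.41 in the centre and 1.17 and 1.14 at 80 bp.

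Elements with the motif were lower in rods and in Nrl-/- photoreceptors than the others of the set, and higher in the second single-sorted library but not in the first. Their median level was 5.37 and 8.21 CPM in the single-sorted libraries, 5.44 and 3.59 in the double-sorted ones, 2.07 and 2.27 in Nrl-/- photoreceptors and 0.625 and 0.753 in rods. For the 2962 elements without it, the medians were 5.62 and 6.38, 4.66 and 4.49, 3.31 and 3.18, and 2.08 and 2.26 CPM. This was not particular to the set. Over all elements, those with and without the motif had group medians of 3.13 and 8.23 CPM in rods and 6.45 and 9.51 in Nrl-/- photoreceptors. The first single-sorted library had 7.81 and 9.52 CPM there, and the second 10.5 and 9.58. The second single-sorted library was above the first at 78.0% of the elements with the motif and at 52.9% of those without. In rods, 13.5% of the elements with the motif had no count in either library, against 5.74% of those without.

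When the 3495 elements were ranked by the log2 level in single-sorted green cones over the mean of the other 3 groups, with a pseudocount of 1 CPM, and split into 4 equal groups by rank, the motif was in 5.72%, 10.5%, 14.2% and 30.5% of the groups from lowest to highest. With library 1 alone for the single-sorted level, the lowest and highest groups held it at 10.8% and 20.4%, and with library 2 alone at 6.06% and 34.0%. Both rankings divide by the same levels of the other groups, so they are not independent of each other. The ranked levels come from the libraries whose peak calls chose the elements, and no other set is given here ranked this way. The shares are therefore a description and no test of a link between motif and level. CTAATCC was at 8.35% in the lowest and 8.24% in the highest group, and AGGTCA at 15% and 23.7%. Promoters made up 12.8% of the lowest and 4.69% of the highest group. The highest group had median levels of 7.0 CPM single-sorted, 3.53 double-sorted, 1.74 in Nrl-/- photoreceptors and 0.585 in rods. In the lowest group these were 4.88, 5.80, 4.06 and 3.99 CPM.

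**Figure D4:**
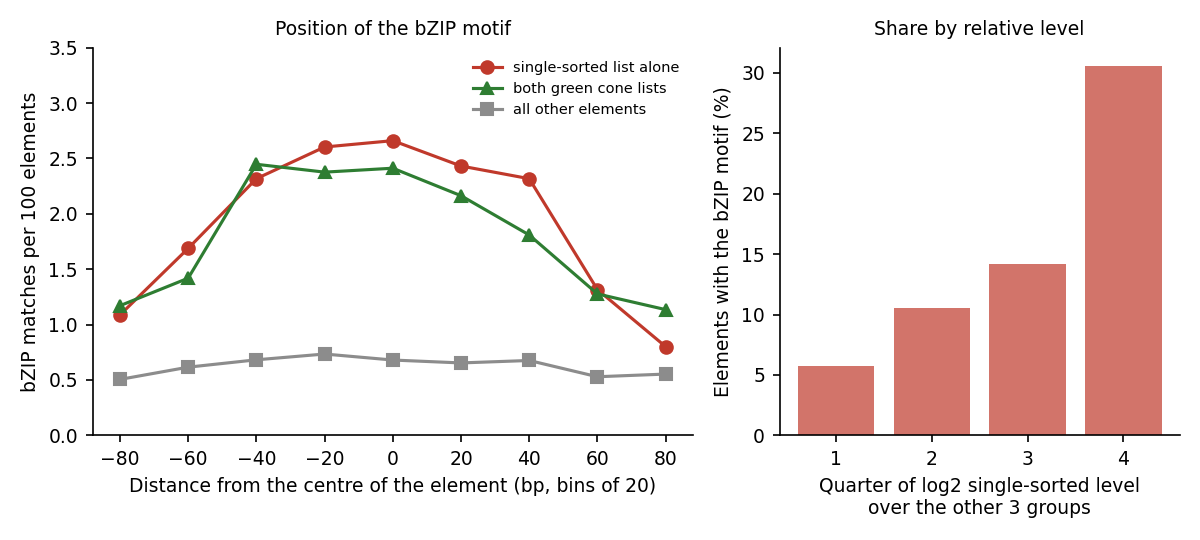
Left, matches to TGANTCA per 100 elements in bins of 20 bp by distance from the centre of the element, for single-sorted-only elements, elements in both green cone lists alone and all other elements, with 2.66, 2.41 and 0.68 in the centre. Right, share (%) of single-sorted-only elements with the motif in 4 groups by rank of the log2 ratio of their level in single-sorted green cones to the other 3 groups, from 5.72% in the lowest to 30.5% in the highest.

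The 5 printed elements that were chosen after their values were seen were low outside the green cones, unlike those of Lims1 and Irf2bp2, which also hold the motif and had 67.5 and 66.8 and 28.9 and 22.0 CPM in rods. The element at -5328 bp from the start of Tbc1d31, a centrosomal protein, had 7.33 and 10.5 CPM in single-sorted green cones, 1.55 and 1.80 in double-sorted, 0 and 0.454 in Nrl-/- photoreceptors and 0 and 0.753 in rods. The intronic element of Manba, the lysosomal beta-mannosidase, had 6.84 and 15.5 CPM single-sorted, 4.66 and 3.59 double-sorted, 0 and 1.36 in Nrl-/- photoreceptors and no count in rods. The Sfn element, within the neighbouring Zdhhc18, had 4.88 and 16.9 CPM in single-sorted and at most 4.66 in any other library. These values show sites that the ranking put among the highest and are no test of it. The Prph2 element, which lies in an intron of Ubr2 and holds both TGACTCA and TGAGTCA, had 7.57 and 16.9 CPM in single-sorted, 10.1 and 3.59 in double-sorted, 4.14 and 2.50 in Nrl-/- and 2.92 and 3.77 in rod libraries. The Dlx2 element had 8.55 and 10.9 CPM single-sorted and 4.66 and 3.59 double-sorted.

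The elements were nearest to 2802 genes, 2298 of them with a single element and 44 with 4 or more. Cdh2, which encodes N-cadherin, and Ntm, a neuronal adhesion protein, had 7 each, out of 19 and 63 elements in the table. Gm13090, a predicted gene, and Ppp2r2b, a regulatory subunit of protein phosphatase 2A, had 6 each of 28 and 27, and Arhgap32, a GTPase-activating protein, had 5 of 20. All 7 elements of Ntm lay in introns, 47.7 to 416 kb from its start site, and their mean levels spanned 2.87 to 9.49 CPM in single-sorted green cones and 0 to 7.87 CPM in rods. The 7 of Cdh2 spanned 2.80 to 14.3 CPM in single-sorted and 0 to 12.6 CPM in double-sorted green cones. Single-sorted green cones were the highest group at 3 of the 7 Cdh2 elements and 4 of the 7 Ntm elements, so elements at 1 gene did not move as a block.

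Few of the elements lay nearest to a gene of the marker lists. Against 6.57% of all elements, the single-sorted-only elements were 6 of 64 elements nearest to Müller glia genes (9.38%), 4 of 53 nearest to bipolar genes (7.55%), 2 of 42 nearest to amacrine genes (4.76%), 2 of 23 nearest to ganglion cell genes (8.70%), 1 of 13 nearest to pigment epithelium genes (7.69%), and 0 of 11, 22 and 13 nearest to horizontal cell, microglia, and endothelial and pericyte genes. They were 5 of 105 at cone genes (4.76%), 2 of 70 at rod genes (2.86%), 6 of 153 at genes of both photoreceptors (3.92%), 8 of 96 at neurodevelopmental transcription factors (8.33%) and 3 of 88 at immediate early and stress genes (3.41%). Counts this small do not order the lists.

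The promoter levels of each list were summed in every library, and such sums include promoters that are open in many kinds of cell. For none of the 13 lists were both libraries of single-sorted green cones above the 6 others. The rod list, with promoter elements at all 15 genes, summed to 1399 and 1433 CPM in rods, 474 and 432 in Nrl-/- photoreceptors, 531 and 431 in green cones sorted once and 226 and 304 in those sorted again. The Müller glia list (9 of 18 genes with a promoter element) gave 244 and 274 CPM after single sorting and 369 and 286 after double sorting, with no overlap. The microglia list (2 of 13) gave 79.8 and 78.9 against 115 and 66.5 CPM. The endothelial list (1 of 13) was at most 7.77 CPM in any library. The bipolar, amacrine, horizontal, ganglion and pigment epithelium lists had 58.8 and 68.0, 72.5 and 69.3, 69.3 and 88.9, 53.2 and 79.4, and 115 and 147 CPM in single-sorted green cones. In double-sorted green cones they had 88.6 and 58.4, 75.4 and 62.9, 120 and 78.2, 73.1 and 49.4, and 194 and 122 CPM, so the sorts overlapped for each. The cone list summed to 579 and 614 CPM in single-sorted and 542 and 734 in double-sorted green cones, and the list of genes of both photoreceptors to 1052 and 928 against 700 and 1011. Neurodevelopmental factors gave 191 and 198 against 194 and 156 CPM, and immediate early genes 798 and 720 against 752 and 741.

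Single elements at cone and photoreceptor genes were mostly low. The element at -540 bp from the start of Thrb, the thyroid hormone receptor of cones (chr14:17660320-17660519), had 14.2 and 8.66 CPM in single-sorted and 3.89 and 4.49 in double-sorted green cones, 10.3 and 6.81 in Nrl-/- photoreceptors and 9.37 and 7.72 in rods. An element 345 bp inside Gnat2, the cone transducin, had 8.79 and 10.9 CPM in single-sorted and 3.11 and 3.59 in double-sorted green cones. In Nrl-/- photoreceptors it had 7.45 and 4.99 CPM, and in rods 1.87 and 0.753. The Gnat2 promoter itself, which is not in the set, had 21.0 and 23.7 CPM in single-sorted and 18.7 and 35.9 in double-sorted green cones. At Six6, a homeodomain gene of the cone list, the element 15319 bp away had 7.33 and 5.47 against 5.44 and 3.59 CPM, with 0.833 and 0.753 in rods.

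Elements at genes of the other lists had similar low levels. Lhx4, a gene of the bipolar list whose RNA was higher in Nrl-/- photoreceptors than in rods, had an intronic element. Its level was 7.33 and 3.65 CPM single-sorted, 1.55 and 0.898 double-sorted, 3.31 and 4.54 in Nrl-/- photoreceptors and 0.417 and 0.753 in rods. The Tyrp1 promoter, at a pigment synthesis gene, had 4.15 and 10.0 CPM in single-sorted, 4.66 and 3.59 in double-sorted, 4.97 and 5.45 in Nrl-/- and 1.67 and 2.26 in rod libraries. Near Slc1a3, the glial glutamate transporter, the level was 6.04 and 7.15 CPM in rods and 4.40 and 7.30 in single-sorted green cones. It was 3.89 and 14.4 CPM in double-sorted green cones, the highest group mean, and 4.14 and 4.31 in Nrl-/- photoreceptors. An element 179 kb from Sox11, a factor of immature neurons, had 3.42 and 7.75 CPM single-sorted and 3.89 and 1.80 CPM double-sorted, and no count in the 4 libraries of rods and Nrl-/- photoreceptors. At the immediate early gene Jun, an exonic element had 16.6 and 8.21 CPM in single-sorted and 9.33 and 9.88 in double-sorted green cones, and in rods and Nrl-/- photoreceptors between 8.10 and 12.5 CPM.

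RNA-seq was not used to choose the elements, and asks whether the nearest genes differ between rods and Nrl-/- photoreceptors. Of the 2802 nearest genes 2654 were in the RNA table and 1953 were tested. With the same edgeR test, at an adjusted p below 0.05 over all 12327 tested genes, 353 (18.1%) were higher in Nrl-/- photoreceptors, where 13.3% of all genes were. In rods 142 (7.27%) were higher, near the 6.88% of all genes. The median log2 fold change, rods over Nrl-/- photoreceptors, was -0.08 for the nearest genes and 0.01 for all genes. Outside promoters, 18.5% of the genes nearest to these elements and 15.7% of those nearest to other elements were higher in Nrl-/- photoreceptors, and 7.60% and 8.13% were higher in rods.

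The share higher in Nrl-/- photoreceptors was 20.2% of 1359 genes for the isolated elements and 26.9% (75) of 279 genes for elements with TGACTCA or TGAGTCA, of which 3.58% (10) were higher in rods. For the elements of both green cone lists alone it was 22.2% of 1218 genes, and for the double-sorted list alone 19.8% of 943. For the Nrl-/- list alone it was 25.4% of 1997 and for the rod list alone 6.76% of 1199, where 18.4% were higher in rods. A gene can be nearest to elements of several of these sets, and the shares were not tested against each other.

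**Figure D5:**
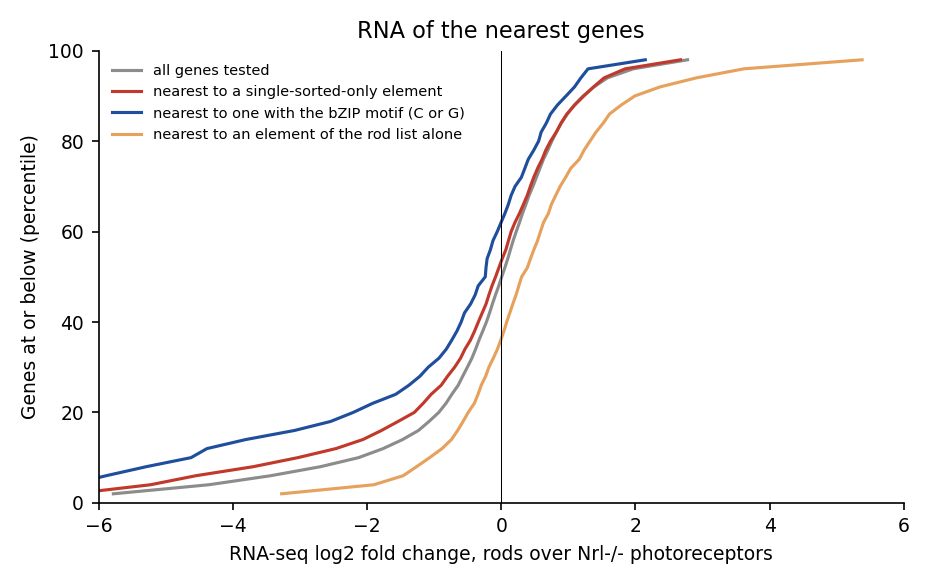
Percentile of genes (y axis) at or below a given RNA-seq log2 fold change of rods over Nrl-/- photoreceptors (x axis), for all genes tested, genes nearest to a single-sorted-only element, those nearest to one with TGACTCA or TGAGTCA, and those nearest to an element of the rod list alone. The medians are 0.01, -0.08, -0.24 and 0.30.

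Genes with the largest changes held between 1 and 3 of the elements. Tnc, the matrix protein tenascin-C, had 5.73, 1.18 and 3.77 normalized counts in rods and 2189, 2132 and 1726 in Nrl-/- photoreceptors (log2 fold change -9.11 ± 0.27 SE, edgeR adjusted p = 1.86e-10). Igsf3, an immunoglobulin superfamily protein, had 59.6, 103 and 126 against 19957, 22243 and 15114 normalized counts (-7.66 ± 0.27, edgeR adjusted p = 6.91e-10). Adcy2, an adenylate cyclase, had 9.17, 7.10 and 7.54 against 1600, 1585 and 1589. A930012L18Rik had 2.29, 0 and 0 against 200.4, 204 and 206. Wwc1, the scaffold KIBRA, changed by -7.98, and Clca1, a symbol that older annotation also gave to Clca3a1, by -7.72. In all of these the groups were far apart.

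Higher in rods were Bst1, an ADP-ribosyl cyclase, at 486, 744 and 406 against 5.23, 2.62 and 0 normalized counts (7.63 ± 0.47 SE, edgeR adjusted p = 1.26e-07), and Lmo1, at 829, 1028 and 904 against 21.8, 18.4 and 25.1 (5.37 ± 0.19, edgeR adjusted p = 1.18e-09). At Lmo1, which holds 3 of the elements, RNA and the intronic element described above were both higher in rods. Galnt10, a glycosyltransferase, Trim36, a ubiquitin ligase, BC046251 and 4933406J10Rik rose in rods by 5.82, 5.31, 6.62 and 5.29 on the log2 scale.

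Among the 5 genes with most elements, Cdh2 was higher in Nrl-/- photoreceptors, at 961, 990 and 806 against 248, 311 and 309 normalized counts in rods (log2 fold change -1.69 ± 0.15 SE, edgeR adjusted p = 0.000521). Ntm (-0.63), Ppp2r2b (-0.61) and Arhgap32 (0.95) did not pass. Gm13090 was too low to be tested. Bach2, a bZIP repressor with 4 of the elements, had 12.6, 4.73 and 18.9 normalized counts in rods and 331, 232 and 219 in Nrl-/- photoreceptors (-4.45 ± 0.38, edgeR adjusted p = 4.58e-06). It was named after its values were seen.

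Over all tested genes 13.3% were higher in Nrl-/- photoreceptors and 6.88% in rods. Of the cone list 15 of 16 tested genes were higher in Nrl-/- photoreceptors, among them Gnat2 (-7.44) and Six6 (-7.12). Thrb (-0.77) did not pass. Of the rod list 12 of 15 were higher in rods, and the ones near an element, Gngt1 (1.02) and Pde6g (1.25, edgeR adjusted p = 0.0765), were not among them. Genes of both photoreceptors gave 7 higher in rods, including Prph2 (1.5), and 2 higher in Nrl-/- photoreceptors, Prdm1 (-1.38) and Cdhr1 (-1.41), of 20 tested. Abca4 (0.98) and Tulp1 (-0.51) did not pass.

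Neurodevelopmental factors were higher in Nrl-/- photoreceptors for 6 of 7 tested, with Six3 (-3.82), Sox11 (-4.61) and Hes6 (-1.79) near an element. Meis1 (-0.02) was the one that was not, and Irx1 and Dlx2 had no count in any of the 6 libraries. Of the bipolar list 5 of 12 were higher in Nrl-/- photoreceptors, with Lhx4 (-4.78) and Scgn (-2.32) near an element, and 1 was higher in rods. Microglia genes were higher in Nrl-/- photoreceptors for 6 of 10, Müller glia genes for 3 of 14, ganglion cell genes for 2 of 4, horizontal cell genes for 1 of 4, pigment epithelium genes for 1 of 2, which was Tyrp1 (-4.57), and amacrine genes for 0 of 3. The endothelial list had 1 of 6 higher in rods. Over all tested genes 13.3% were higher in Nrl-/- photoreceptors and 6.88% in rods, and counts this small do not order the lists. No microglia, horizontal cell or endothelial gene was nearest to an element of the set. Near an element but not past the test were Glul (0.36), Slc1a3 (0.96), Nfia (0.12), Meis2 (-0.61) and Nefl (0.35), and Th, Slc17a6, Lhx2 and Zic2 were too low to be tested.

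The immediate early and stress list had 6 of 14 genes higher in Nrl-/- photoreceptors and 2 in rods, where 13.3% and 6.88% of all tested genes were. Fos, which encodes a partner of JUN, had 752, 335 and 465 normalized counts in rods and 1857, 1364 and 1468 in Nrl-/- photoreceptors (log2 fold change -1.62 ± 0.24 SE, edgeR adjusted p = 0.0168). Junb had 120, 80.4 and 108 against 315, 469 and 511 (-2.09 ± 0.23, edgeR adjusted p = 0.000412). Jun (-1.21, edgeR adjusted p = 0.108) and Fosb (-0.64) did not pass, although no library of Nrl-/- photoreceptors overlapped the rods for either. Their levels in green cones were not analysed here.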

How the data were processed

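The data are 8 ATAC-seq libraries, 2 in each of 4 groups, and 6 RNA-seq libraries, 3 in each of 2 groups, grouped by the labels. As the methods and the processing notes of the submitters state, the authors aligned ATAC-seq reads to GRCm38/mm10 with Bowtie2 2.2.3, removed reads under a mapping quality of 30 (SAMtools 1.3), duplicates (Picard 1.121) and inserts over 100 bp, and called peaks on pooled replicates with MACS2 2.1.0 at an IDR threshold of 0.01, so peak lists have no replicates. For RNA-seq, STAR 2.4.2a made the alignments and HTSeq 0.6.1p1 the gene counts. Elements were counted with bedtools 2.24.0. Both deposited tables hold raw counts, per 200 bp element and per gene. Each deposited peak has a score from MACS2 (not used), a fold enrichment (a ratio), −log10 q, and a summit offset in bp.

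Libraries were scaled by TMM, filtered with filterByExpr and tested with edgeR 4.0.16 (glmQLFit, glmTreat against a log2 fold change of 1) on all elements or genes, with Benjamini-Hochberg adjusted p under 0.1 (ATAC-seq) or 0.05 (RNA-seq). The tests were checked on simulated counts. Replicate numbers were not used as a block. Totals over genes were 18376770 to 26312895 counts per RNA-seq library. Reads without a gene, 41.3% to 49.2%, were left out. The nearest gene of an element came from 31614 start sites (26147 genes, curated RefSeq transcripts, GRCm38.p6). The RNA table held 15165 of the 16840 nearest genes under their symbol and 663 under a synonym. Sequences are from the same assembly and were not printed for elements on chromosome 18 or overlapping an exon.

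The elements, gene lists and motifs were chosen with earlier results of these data known. Named were the 10 elements highest in single-sorted green cones, up to 4 per gene list, 3 on each side of the edge of the rule, up to 5 with the lowest p per ATAC-seq test and direction, the 5 genes with most elements, up to 6 nearest genes per direction with the largest RNA change (mean of at least 100 in the higher group, no overlap), and list genes near an element, with values given for a part of them. Alternatives were DESeq2 1.42.0, other scalings, no filter, thinning, the replicate block, other windows and leaving out each library. Intervals cover counting error only.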

Additional observations from a re-analysis of the deposited data

How the results depend on the processing

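The number of elements stayed within 1.5 times of 3495 for summit windows of 50 bp (3525), of 200 bp (3184) and for whole peak intervals (2508). By whole intervals the median distance to a start site was 20212 bp, and with promoters from 2000 bp upstream to 500 bp downstream the promoter share was 20.3%. The bZIP motif kept its ratio above 1 there, at 18.9% of elements. As CPM of processed reads, which is another unit, the median levels were 0.232 (rods), 0.265 (Nrl-/- photoreceptors), 0.410 (single-sorted) and 0.446 (double-sorted green cones). With 1 library left out they were 2.90 to 2.95 CPM in Nrl-/- photoreceptors and 3.59 to 4.66 CPM in double-sorted green cones. Single- against double-sorted calls went from 0 to 45 over the left-out libraries (45 without double-sorted replicate 4, among 719 over all elements).

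Rods against Nrl-/- photoreceptors gave 58 and 379 calls, among 3151 and 10377 over all elements. With DESeq2 they were 10 and 144, among 1307 and 5982. With processed reads as library sizes they were 88 and 118, among 4028 and 5972. Thinned to the smallest total, which left 165 of the single-sorted-only elements tested, they were 3 and 10, among 1250 and 3839. The fit of all 8 libraries called 37 in rods, among 2380 over all elements. Leaving out a library gave 36 to 74 and 101 to 416. With a replicate block the calls were 51 and 291 for ATAC-seq, among 3076 and 9654 over all elements. For RNA-seq they were 147 and 355 of the nearest genes, among 873 and 1642 over all genes. The correlation of deviations between same-numbered libraries was 0.03 for ATAC-seq and 0.21, 0.11 and -0.003 for RNA-seq. Such values from so few libraries cannot show whether the numbers paired them. The RNA counts of 142 and 353 nearest genes stayed within 1.5 times under every alternative (107 and 309 with DESeq2). Leaving out a library of an ATAC-seq group leaves a lone library without spread, so nothing is read from the calls of those fits. Except where stated, the cause was not tested. Depth limits the double-sorted libraries most, with medians of 6 and 4 counts per element. The ranking by either single-sorted library alone was added after seeing the data.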
